A study of Rattus norvegicus with 18 samples.

Results

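The genes described here encode the subunits of the mitochondrial respiratory chain and of ATP synthase. They were chosen by symbol: each gene whose symbol in the probe-to-gene table begins with Ndufa, Ndufb, Ndufc, Ndufs or Ndufv, with Uqcr, with Atp5 or with Cox4 to Cox8, together with Sdha, Sdhb, Sdhc, Sdhd, Cyc1 and Cycs, and without the Ndufaf assembly factors. Only probe sets with 1 gene symbol were taken, and for each gene the probe set with the highest mean log2 signal was kept. This gave 81 of the 14217 genes named on the array, from 90 of 31042 probe sets. A total of 78 of them were among the 12238 probe sets tested, for which 1 or more of the 18 arrays gave a signal of 400 or above. By symbol, 36 genes belonged to complex I, 4 to complex II, 8 to complex III, 17 to complex IV and 16 to ATP synthase. Membership rests on the symbol alone, and not every member is a structural subunit. Atp5if1, an inhibitor of ATP synthase, and Cox6c-ps1, annotated as a pseudogene, are counted with the subunits throughout. Ndufa4, now known as a subunit of complex IV, and its relative Ndufa4l2 are counted with complex I by symbol. The 3 genes not tested were Cox4i2, Cox6b2 and Cox7b2, all of complex IV, whose signals ran from 87.3 to 280, from 4.8 to 174 and from 3.2 to 85.0. Cycs, Cox7a2, Atp5mc1, Atp5mc2, Ndufs5 and Uqcrb were not analysed here.

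The study examined muscles of female Lewis rats, 6 to 8 weeks old at the start, in which experimental autoimmune myasthenia gravis (EAMG) was induced. EAMG rats received 40 µg of acetylcholine receptor from the electric ray Torpedo in complete Freund's adjuvant with 0.5 mg of added non-viable Mycobacterium tuberculosis, and control rats received the adjuvant with the bacteria but no receptor, so that both groups carried the adjuvant. Diaphragm (DIA), extensor digitorum longus of the hindlimb (EDL) and the extraocular muscles that move the eye (EOM) were taken at week 6, giving 6 groups of 3 arrays each. Every array held RNA pooled from several rats (3 by the series description, 4 or 5 by the methods). The error given with each value (±, SE) therefore reflects differences between pools and not between animals. It comes from a variance fitted for each probe set over all 6 groups together. A gene thus has the same SE in every muscle, which is not the spread of the arrays compared. Leaving out an array of a muscle can for this reason alter the test in the others. The same rats may have given all 3 muscles. EAMG rats were weak and lost weight, and an effect of weight loss cannot be told apart from one of EAMG in these groups. Whole muscle was measured, in which fewer cells of a type and less RNA per cell cannot be told apart.

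Complex I takes electrons from NADH and complex II from succinate. Coenzyme Q carries them to complex III, cytochrome c carries them on to complex IV, and complex IV hands them to oxygen. Complexes I, III and IV pump protons as they do so, and ATP synthase lets the protons back through its ring of c subunits to make ATP. Most of the subunits are encoded in the nucleus. Several complex IV subunits exist as a form found in many tissues and a form found mainly in heart and skeletal muscle. Slow and fast oxidative fibres hold more mitochondria than fast glycolytic ones, and the EOM and diaphragm, which are in use all day, are known as more oxidative muscles than the EDL.

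The labels of the muscles fitted their markers. All 10 slow fibre contractile genes tested were higher in control DIA than in control EDL, and all 3 extraocular myosins tested were higher in control EOM than in EDL. Every array had been scaled to a trimmed mean signal of 500, and 27.9% to 31.1% of probe sets reached 400. Some EAMG arrays stood apart. DIA EAMG array 3 had a GAPDH 3′ to 5′ signal ratio of 2.66 against 1.06 to 1.33 elsewhere. DIA EAMG array 2 and EOM EAMG array 2 had mean signals of the poly-A spike-in controls of 842 and 586 against 11357 to 27513 elsewhere. EDL EAMG array 2 had a summed slow fibre signal of 312011 against 96158 to 116845 on the other EDL arrays, and EOM EAMG array 3 had the lowest summed signal of skeletal muscle identity genes in its muscle. The counts and medians over the subunits, and the single genes for which it changed the call or the size by much, are also given without these arrays.

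Signals of the subunits were lower in EAMG than in control muscle in nearly every case, by a small amount. The log2 change lay below 0 for 77 of 78 subunits in DIA, 75 in EDL and 77 in EOM, where 5954, 6158 and 6103 of all 12238 probe sets did so. The medians of these changes were -0.25 (DIA), -0.23 (EDL) and -0.20 (EOM), which is a signal lower by 16.1%, 14.7% and 12.8%, while the medians over all probe sets were 0.01, -0.003 and 0.0006. A total of 73 subunits lay below 0 in all 3 muscles and the other 5 in 2 of them. The subunits above 0 were Atp5if1 in DIA at 0.13, Ndufb11, Cox7a2l and Ndufa5 in EDL at 0.14, 0.09 and 0.08, and Ndufv1 in EOM at 0.04, none of them past the test.

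Few single subunits passed the test across all probe sets (limma with Benjamini-Hochberg adjustment, called at an adjusted p under 0.05). In DIA 1 subunit was called lower, in EDL 7 and in EOM 1, and none was called higher in any muscle. Among all probe sets tested, DIA had 1.15% called lower and 1.53% higher, EDL 3.22% and 3.37%, and EOM 0.531% and 0.964%. These counts take the brightest probe set of each gene, and a dimmer one of Ndufv3, with a mean signal of 414, was called higher in EDL (0.57, limma adjusted p = 0.0455) and had -0.25 in DIA and -0.22 in EOM. Before adjustment, limma's p was under 0.05 for 32 subunits in DIA, 29 in EDL and 17 in EOM, all of them lower, against 1095, 1515 and 732 of all probe sets. All 3 EAMG arrays lay below all 3 control arrays for 46 subunits in DIA, 50 in EDL and 26 in EOM, and for none did they lie above. The share of all probe sets with such lower, non-overlapping arrays was 11.1% (DIA), 12.4% (EDL) and 11.9% (EOM). In all, 16 subunits (20.5%) were separated in this way in all 3 muscles and 25 (32.1%) in 2. Another 24 (30.8%) were separated in 1 and 13 (16.7%) in none. The shares of all probe sets were 1.88%, 6.18%, 17.4% and 74.5% in that order. The 16 include Ndufa4l2 and Cox6c-ps1, which reached the signal needed for testing only on control arrays.

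**Figure D1:**
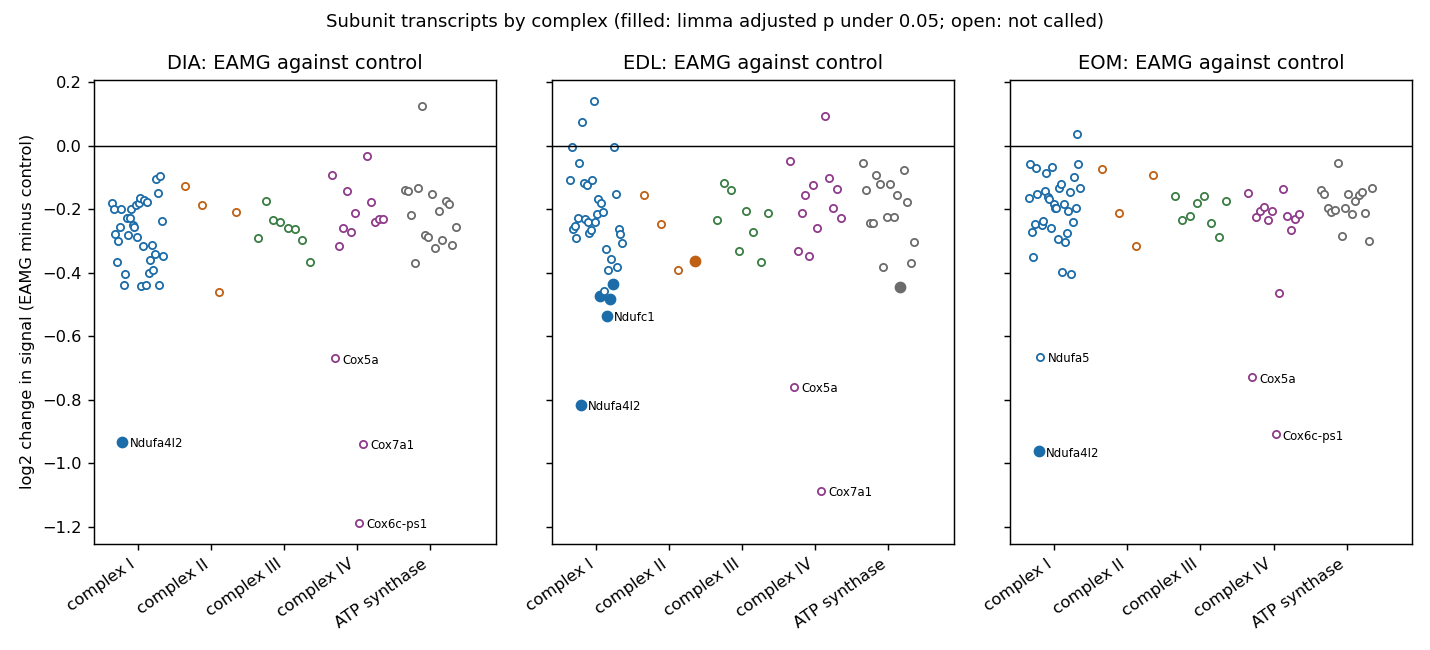
Log2 change in signal (EAMG minus control, vertical axis) of the 78 tested subunits, by complex, in DIA, EDL and EOM; each point is 1 gene, filled where limma's adjusted p was under 0.05. The points lie mostly between 0 and -0.5 in every complex, with 77, 75 and 77 of 78 below 0, and Ndufa4l2 is filled in all 3 muscles.

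The lower signals were spread over all 5 assemblies. In complex I the medians were -0.27, -0.25 and -0.19 for DIA, EDL and EOM, and 36, 34 and 35 of 36 subunits were below 0. The 4 subunits of complex II, which is also the succinate dehydrogenase of the citric acid cycle, had medians of -0.20, -0.30 and -0.15 and were below 0 in every muscle. So were the 8 of complex III, with medians of -0.26, -0.22 and -0.20. Complex IV, the cytochrome c oxidase, had medians of -0.24, -0.20 and -0.22 over 14 tested subunits, of which 14, 13 and 14 were below 0. ATP synthase had medians of -0.21, -0.20 and -0.19 over 16 genes, of which 15, 16 and 16 were below 0. No test of a difference between complexes was made. Non-overlapping arrays were found in complex I for 19, 24 and 16 of 36 subunits in DIA, EDL and EOM, in complex II for 2, 3 and 1 of 4, in complex III for 5, 6 and 2 of 8, in complex IV for 9, 7 and 5 of 14, and in ATP synthase for 11, 10 and 2 of 16. The last of these is a share of 12.5%, near the 11.9% of all probe sets in EOM, and with 8 and 4 subunits the counts of complexes III and II give only coarse shares.

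Taken array by array, the median subunit signal against the mean of its muscle's controls ran from -0.04 to 0.05 on the 9 control arrays. In EDL the 3 EAMG arrays lay close together, at -0.21, -0.26 and -0.24. In DIA they lay at -0.11, -0.37 and -0.24, and in EOM at -0.01, -0.24 and -0.39. EDL therefore had the smallest spread of the 3, and EOM EAMG array 1 was level with its controls. Without EOM EAMG array 3 the median change in EOM was -0.11, and without EOM EAMG array 1 it was -0.31. Without the 4 arrays with low poly-A signal, a high GAPDH ratio or high slow fibre signal the median in DIA was -0.11, which then rested on 1 EAMG array.

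**Figure D2:**
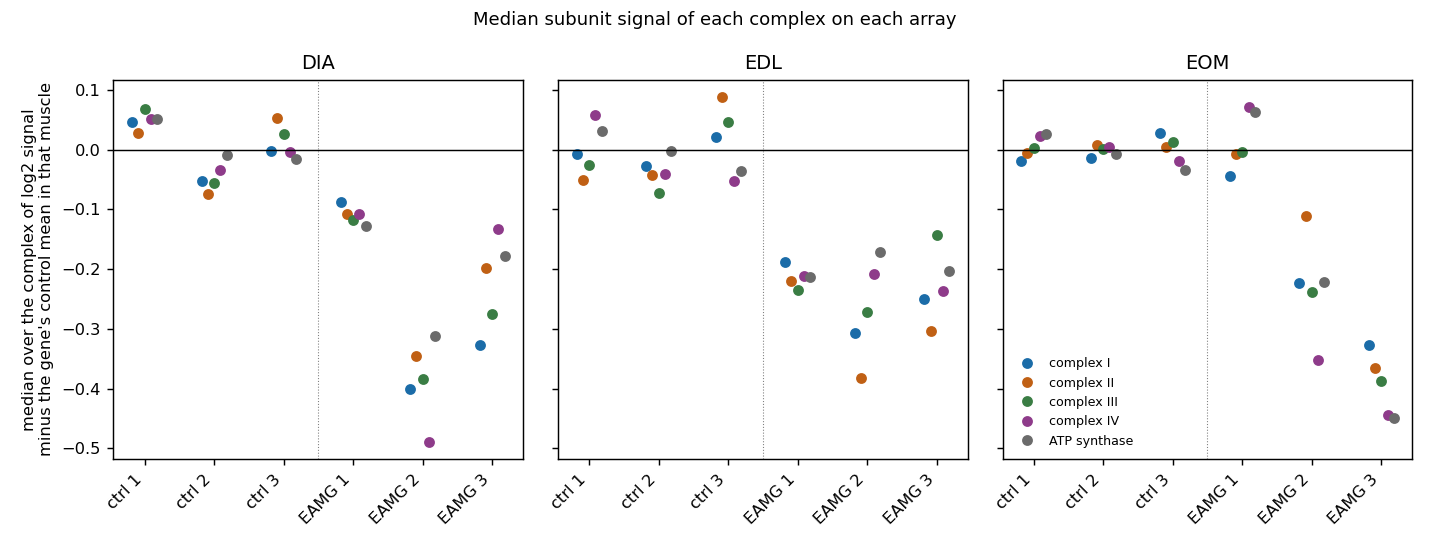
Median over each complex of the log2 signal minus the gene's control mean in that muscle (vertical axis), for each of the 3 control and 3 EAMG arrays of DIA, EDL and EOM; colours mark the 5 complexes. The complexes are not level on every array: on EOM EAMG array 1 complex IV is at 0.07 and complex III at -0.003, and on DIA EAMG array 3 complex IV is at -0.13 and complex III at -0.28. Over all subunits the EAMG arrays of EOM sit at -0.01, -0.24 and -0.39.

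Genes of the muscle fibres themselves gave mixed values. The 9 tested genes of skeletal muscle identity had median changes within 0.06 of 0 in every muscle, and none was called. In EOM, however, their median on EAMG arrays 1, 2 and 3 was 0.27, -0.02 and -0.31, the same order as that of the subunits, and their summed signal was 249002, 197260 and 152356 against 193389 to 209892 in controls. The 11 tested fast fibre genes had medians of -0.20, -0.14 and -0.14, near those of the subunits, with 11, 11 and 9 below 0 and 1 called lower in DIA. The 10 slow fibre genes had medians of -0.16, 0.59 and -0.10, the EDL value with EDL EAMG array 2 at 1.60 and the other EAMG arrays of EDL at -0.00 and 0.02. Without EDL EAMG array 2 the slow fibre median in EDL was 0.04. The part of fibre and muscle content in the subunit changes was not tested.

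Among markers of other cell types, the red blood cell genes gave most of the calls. All 3 tested red blood cell genes were called lower in DIA and EOM and 1 in EDL, with medians of -1.94, -1.15 and -1.81, and their summed signal was 13313 to 20099 in DIA controls against 2252 to 5461 in EAMG, 3866 to 5585 against 1313 to 2785 in EDL and 8893 to 12526 against 2196 to 3742 in EOM. None of the 9 tested macrophage genes was called, with medians of 0.57, 0.21 and 0.30 and a summed signal in EOM of 7254 to 14966 in controls against 11392, 11750 and 23410 in EAMG. In DIA the macrophage sum was 7310 to 10627 in controls and 11432 to 15661 in EAMG, without overlap, and in EDL 1944 to 4317 and 1881 to 4867, with overlap. Of the 6 adipocyte genes none was called, with medians of 0.38, -0.77 and 0.39. The arrays differed widely: EAMG arrays 1, 2 and 3 stood at -0.47, 1.62 and 0.28 in DIA, where controls ran from -0.81 to 0.81. In EDL they stood at -0.54, 0.17 and -1.13, and in EOM at 0.40, 1.15 and -0.27. The 7 endothelial genes had medians of 0.17, -0.38 and -0.22, with 1 called higher in DIA and 1 in each direction in EDL, and the 5 Schwann cell genes had medians of -0.14, -0.10 and 0.06, with none called. The 6 orbital gland and surface epithelium genes had medians of -1.12, 0.28 and 0.93, with 1 called higher in EOM. Their summed signal was only 241 to 693 in DIA and 378 to 581 in EDL, against 806 to 3189 in EOM. The medians in DIA and EDL thus rest on dim signals. In DIA the EAMG arrays 1, 2 and 3 stood at -0.18, -2.23 and -0.41. Whether any of these contents has a part in the subunit changes was not tested.

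The subunits are among the brightest transcripts of muscle, so their changes were set beside those of other bright probe sets. The mean signal of a subunit ran from 292 to 29833 with a median of 16095, and 25 subunits exceeded 20000. Those 25 had median changes of -0.18, -0.15 and -0.20 in DIA, EDL and EOM, and the 103 other probe sets over 20000 had -0.10, -0.06 and -0.13, with 69.9%, 56.3% and 86.4% of them below 0. Between 10000 and 20000 the 31 subunits had medians of -0.26, -0.24 and -0.18, and the 242 other probe sets 0.003, 0.07 and -0.04. Between 5000 and 10000 the 14 subunits had -0.28, -0.22 and -0.17, and the 470 others 0.002, 0.03 and -0.03. The 6 subunits between 1000 and 5000, Cox5a and Cox7a1 among them, had -0.39, -0.45 and -0.40, and the 3826 others 0.04, 0.01 and 0.006. Whether the array responds in proportion at the highest signals was not tested. After quantile normalization, which gives all arrays the same distribution, the 103 bright probe sets had medians of 0.00, 0.007 and 0.009 and the 25 bright subunits -0.12, -0.13 and -0.04. Over all 78 subunits the quantile normalized medians were -0.22, -0.25 and -0.11, with 76, 75 and 74 below 0. In both ranges above 10000 the medians of the subunits and of the other probe sets, with the signals as deposited, lay closest in EOM. The part of brightness in the subunit changes was not tested beyond these values.

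**Figure D3:**
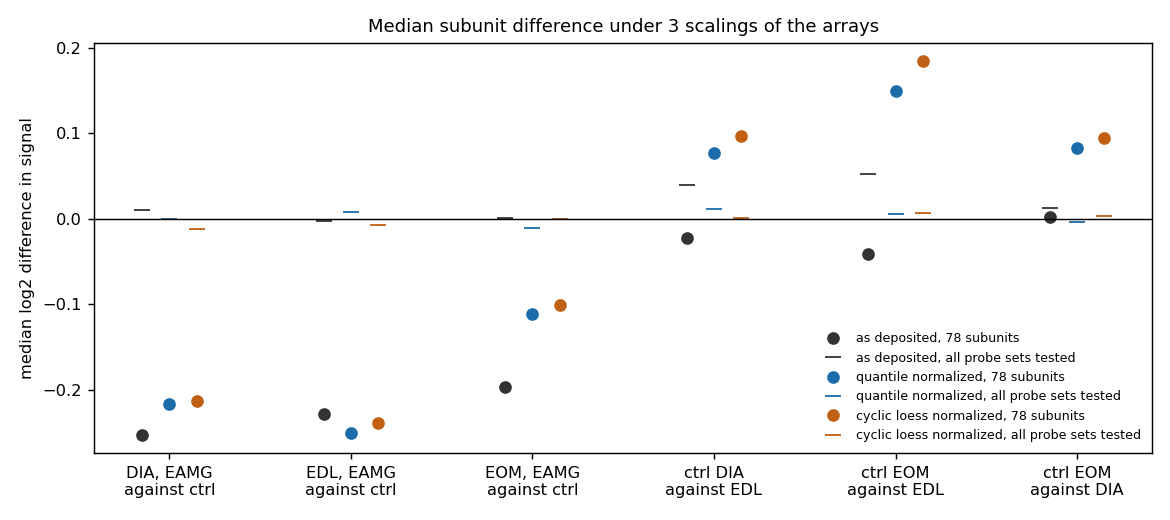
Median log2 difference in signal (vertical axis) of the 78 subunits (points) and of all probe sets tested (dashes) in 6 comparisons, with the signals as deposited, quantile normalized and cyclic loess normalized. The 3 EAMG medians stay below 0 under each scaling (-0.22, -0.25 and -0.11 quantile normalized), and the 3 medians between control muscles turn from -0.02, -0.04 and 0.002 to 0.08, 0.15 and 0.08.

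Because the subunits lay on the same side of 0, their promoters were read for short sequences bound by factors known to act on respiratory genes. Of the 81 genes, 72 had a promoter in the RefSeq table (build GRCr8), and the 250 bases before the start of each were searched on both strands. CCGGAAGT, bound by GABPA (nuclear respiratory factor 2), was present in 8 of them (11.1%) against 3.29% of all 27457 promoters, and these were the promoters of Atp5f1a, Ndufa13, Ndufb7, Ndufs1, Uqcrh, Uqcrq, Cox5b and Cox8a. GCGCATGCG, bound by NRF1, was present in 5 (6.94% against 1.49%). TCAAGGTCA, bound by oestrogen-related receptors, was present in Atp5mc3 alone (1.39% against 0.368%), and AAGATGGCG, bound by YY1, in Atp5pf alone (1.39% against 0.736%). The hypoxia response core ACGTG was found in 17 (23.6% against 16.9%), TATAAA in 8 (11.1% against 13.1%) and the E-box CAGCTG of myogenic factors in 8 (11.1% against 11.9%). The median GC content was 55.2% for the subunit promoters and 52% for all. The promoters set beside them were all those in the table, not only those of genes tested here. These matches describe the letters of the window only, and a link to the EAMG changes was not tested.

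Ndufa4l2 was the member called lower in all 3 muscles. It is a relative of Ndufa4 that is known as a target of the hypoxia-inducible factor HIF-1, and although both are named for complex I, Ndufa4 is now known as a subunit of complex IV. In DIA its signal was 381, 376 and 358 on the control arrays and 252, 151 and 194 on the EAMG arrays, a log2 change of -0.93 ± 0.19 (SE, n = 3 arrays per group, limma adjusted p = 0.0208). In EDL it was 381, 327 and 462 against 280, 218 and 172 (-0.82 ± 0.19, limma adjusted p = 0.0223), and in EOM 488, 450 and 399 against 228, 229 and 226 (-0.96 ± 0.19, limma adjusted p = 0.0176). Every EAMG array lay below every control array of its muscle. The probe set was dim: it reached 400 on 3 arrays, all of them controls, so it entered the test only through the group where it was high, and the call says less than one of a gene measured everywhere. With every probe set on the array tested instead, limma's adjusted p was 0.112, 0.104 and 0.108. Left out of the counts above, it leaves 0 subunits called in DIA, 6 in EDL and 0 in EOM. Its promoter is printed because it was the only subunit called in more than 1 muscle. None of the 7 strings searched, ACGTG included, was in these 250 bases (chr7:65241919-65242168, plus strand, GRCr8, 5′ to 3′).
Ndufa4l2: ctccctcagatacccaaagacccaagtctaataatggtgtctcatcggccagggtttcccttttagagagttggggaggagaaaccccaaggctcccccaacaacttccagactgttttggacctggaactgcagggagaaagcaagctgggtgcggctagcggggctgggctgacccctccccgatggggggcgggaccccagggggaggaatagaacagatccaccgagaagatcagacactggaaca

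Besides Ndufa4l2, which is counted there by symbol alone, 4 complex I subunits called in EDL fell by 0.44 to 0.53 on the log2 scale. Ndufc1, an accessory subunit of the membrane arm, had signals of 11085, 10138 and 10828 in EDL controls and 8479, 7529 and 6267 in EAMG (-0.53 ± 0.14, SE, limma adjusted p = 0.0365). Ndufb5, another accessory subunit of the membrane arm, had 23859, 22313 and 21556 against 17270, 16860 and 14693 (-0.47 ± 0.12, limma adjusted p = 0.0287). In both the groups were well apart. The same subunits were not called elsewhere: in DIA their changes were -0.40 and -0.44 (limma adjusted p = 0.133 and 0.0572), and in EOM -0.30 and -0.29 (limma adjusted p = 0.378 and 0.281).

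Ndufs1 is the largest subunit of complex I and carries iron-sulfur clusters along the path of the electrons. Its EDL signal was 12108, 11777 and 13113 in controls and 9496, 8413 and 8602 in EAMG (-0.48 ± 0.12, SE, limma adjusted p = 0.0345). Ndufs4, an accessory subunit whose loss causes Leigh syndrome, had 1906, 1781 and 1848 against 1262, 1349 and 1487 (-0.44 ± 0.12, limma adjusted p = 0.0461). Neither pair of groups overlapped. Ndufs4 had changes of -0.34 in DIA and -0.40 in EOM, and its arrays were also separated there, with 2803, 2350 and 2479 in EOM controls and 1959, 1973 and 1821 in EAMG.

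Outside complex I, 1 subunit of complex II and 1 of ATP synthase fell in EDL. Sdhd, which anchors complex II in the membrane and is named, after its values were seen, as the subunit with the smallest change among the 7 called, had 18082, 18464 and 20367 in controls and 16230, 13707 and 14374 in EAMG (-0.36 ± 0.10, SE, limma adjusted p = 0.0441). Its change was -0.21 in DIA and -0.09 in EOM. Atp5mpl, a small protein of the membrane part of ATP synthase, had 13168, 12837 and 12322 in EDL controls and 10318, 9750 and 8229 in EAMG (-0.44 ± 0.12, limma adjusted p = 0.0364). The EAMG arrays of both genes were below all their controls. None of the 9 calls above was kept in all 18 fits that each left out 1 array. In EDL those of Ndufa4l2, Ndufb5 and Ndufs1 were kept in 14, 14 and 13 of the 18. Those of Ndufc1 and Atp5mpl were kept in 11 each, and those of Sdhd and Ndufs4 in 6 and 2. The call of Sdhd was also lost with the probe sets of a gene averaged, and that of Ndufs4 with quantile normalization. The number called in EDL was 0 without EDL control array 1, EDL EAMG array 2 or EDL EAMG array 3, 1 without EDL control array 2, 3 without EDL control array 3 or EOM control array 1 or 3, 4 without EOM control array 2 and 11 without DIA EAMG array 2. The number in DIA was 0 without any 1 of the DIA control arrays or DIA EAMG array 2, 11 without DIA EAMG array 1 and 2 without EOM EAMG array 3, and the number in EOM was 0 without any 1 of its 6 arrays.

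**Figure D4:**
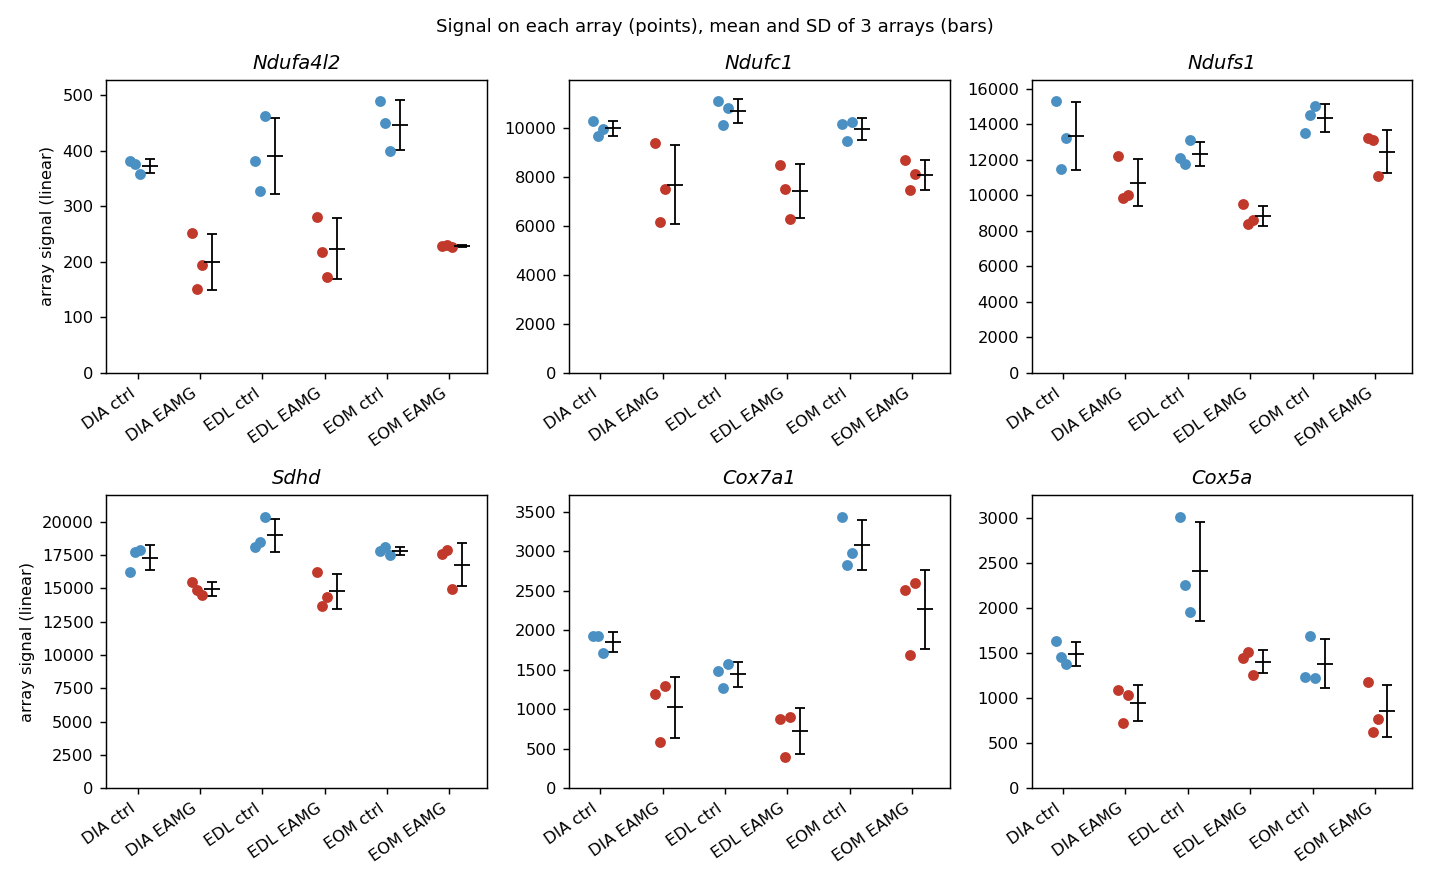
Signal on each array (points, linear scale) with the mean and SD of 3 arrays (bars) in control and EAMG DIA, EDL and EOM, for Ndufa4l2, Ndufc1, Ndufs1, Sdhd, Cox7a1 and Cox5a. Ndufa4l2 is at 327 to 488 in every control group and at 151 to 280 in EAMG, and the Cox7a1 signal of EAMG array 2 is the lowest of each muscle.

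Larger changes that did not pass the test were found in complex IV. Cox7a1, the heart and skeletal muscle form of subunit VIIa, had 1930, 1924 and 1710 in DIA controls against 1188, 586 and 1296 in EAMG (-0.94 ± 0.31, SE, limma adjusted p = 0.114), and 1486, 1263 and 1569 against 873, 391 and 902 in EDL (-1.09 ± 0.31, limma adjusted p = 0.0502). In EOM it had 3435, 2822 and 2970 against 2511, 1688 and 2596 (-0.46 ± 0.31, limma adjusted p = 0.574). The groups did not overlap in any muscle, and EAMG array 2 was lowest in each. Without that array of the muscle the changes were -0.58, -0.69 and -0.26 (limma adjusted p = 0.436, 0.184 and 0.881). In EDL the adjusted p passed the threshold when 1 of 4 other arrays was left out (DIA EAMG array 2 or 3, EDL EAMG array 1 or EOM EAMG array 2), at 0.0252 to 0.0495, and was 0.0219 without the 4 arrays named above. Cox5a, a subunit that faces the mitochondrial matrix, had changes of -0.67, -0.76 and -0.73 (± 0.23, limma adjusted p = 0.125, 0.0614 and 0.149). Its signals in EDL were 3008, 2250 and 1951 against 1438, 1505 and 1260, in DIA 1636, 1449 and 1381 against 1090, 721 and 1035, and in EOM 1233, 1691 and 1223 against 1178, 619 and 767. They did not overlap either.

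Cox6c-ps1, annotated as a pseudogene whose probes may also pick up Cox6c, was named after its values were seen, as the subunit symbol with the lowest change in DIA. Its signals there were 569, 386 and 367 against 181, 108 and 349 (-1.19 ± 0.32, SE, limma adjusted p = 0.0568), and its changes in EDL and EOM were -0.26 and -0.91. It reached 400 on 4 arrays, all controls. Cox6c itself changed by -0.21, -0.12 and -0.20.

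None of the partner isoforms of the other subunits was called in EAMG, and no difference between partners was tested. Cox6a1 and Cox6a2, the general and the muscle form of subunit VIa, had changes of -0.26, -0.21 and -0.20 and of -0.14, -0.15 and -0.19 in DIA, EDL and EOM. Cox8a and Cox8b, the general and the muscle form of subunit VIII, had -0.23, -0.14 and -0.23 and -0.23, -0.23 and -0.22. Cox4i1, the main form of subunit IV, had -0.09, -0.05 and -0.15, with Cox4i2 too dim to test, and Cox6b1 had -0.27, -0.35 and -0.23, with Cox6b2 too dim to test. Atp5mc3, which encodes the c subunit of the ATP synthase ring, had -0.28, -0.38 and -0.28, and its signals in EDL were 32189, 27672 and 26666 against 21208, 23147 and 21869. Ndufa4 had -0.20, -0.05 and -0.15. None of these was called.

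The 16 subunits whose EAMG arrays lay below the control arrays in all 3 muscles were Ndufa2, Ndufa13, Ndufa4l2, Ndufb5, Ndufc1, Ndufc2, Ndufs3, Ndufs4 and Ndufv3 of complex I, Sdhc of complex II, Uqcrh and Uqcr11 of complex III, Cox5a, Cox6c-ps1 and Cox7a1 of complex IV and Atp5pf of ATP synthase. Complex I gave 9 of these 16 and 36 of the 78 tested. Ndufa4l2 and Cox6c-ps1 reached the signal needed for testing only on control arrays. They entered the test through the group where they were high, so their separation says less than that of a gene measured everywhere. Uqcrh, the hinge protein between cytochrome c1 and cytochrome c, had changes of -0.30, -0.37 and -0.29, Ndufs3, a core subunit of the matrix arm, -0.39, -0.36 and -0.15, and Atp5pf, coupling factor 6 in the stalk of ATP synthase, -0.31, -0.37 and -0.30. Sdhc, the other membrane anchor of complex II, had -0.46, -0.39 and -0.32. None of these 4 was called in any muscle. For Ndufv3 this holds for the brighter of its probe sets, the dimmer one having been called higher in EDL.

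The size of the EAMG change was compared between muscles directly, since the eye muscles are often the first to weaken in myasthenia gravis. The difference of changes was called for 0 of 78 subunits in each of the 3 pairs of muscles by limma, and 0 had an unadjusted p under 0.05. Among all probe sets the share called was 0.0163% for DIA against EDL, 0.106% for EOM against EDL and 0.0163% for EOM against DIA. The median difference of the changes was -0.02 for DIA minus EDL, 0.03 for EOM minus EDL and 0.04 for EOM minus DIA. A subunit called in EDL and not in EOM is therefore not shown to differ between them. This does not show that the changes were alike.

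Among control muscles a small number of subunits differed, isoforms of complex IV among them. Control DIA had 5 subunits higher and 1 lower than control EDL, control EOM had 8 higher and 2 lower than EDL, and control EOM had 3 higher and 1 lower than DIA (limma, adjusted p under 0.05). Among all probe sets, 14.1% were called higher and 10.8% lower in DIA than in EDL, 23.1% and 18.3% in EOM than in EDL, and 10.6% and 10.7% in EOM than in DIA. Of the subunits, 6.41% were called higher in DIA than in EDL and 10.3% in EOM than in EDL. These 3 comparisons share the control arrays. The median difference of the subunits was -0.02, -0.04 and 0.002, with 44, 43 and 38 of 78 below 0, where the medians of all probe sets were 0.04, 0.05 and 0.01.

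That split depended on how the arrays were scaled. With quantile normalization the medians were 0.08, 0.15 and 0.08, with 21, 10 and 19 of 78 below 0, and 9 and 20 subunits were called higher in DIA and EOM than in EDL. With cyclic loess normalization the medians were 0.10, 0.18 and 0.09, with 10, 6 and 19 below 0, and 11 and 29 were called higher. No direction is therefore given for the subunits as a family between control muscles. The single subunits described next kept their direction and their call under both scalings, except where it is said. With no signal minimum the calls of Cox8a, Cox5a and Ndufa5 for DIA minus EDL were lost. So were those of Atp5me, Ndufa5 and Ndufb8 for EOM minus EDL and of Ndufs4 and Ndufv3 for EOM minus DIA. The call of Ndufa5 for DIA minus EDL was also lost with these muscles fitted alone. Without EDL control array 1 the numbers called higher than in EDL were 3 in DIA and 5 in EOM.

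Cox6a1 and Cox8a, the general forms of subunits VIa and VIII, were lowest in EDL, higher in DIA and highest in EOM. The Cox6a1 signal was 2179, 2378 and 2826 in EDL, 3615, 3928 and 4044 in DIA and 5755, 5712 and 6728 in EOM, with no overlap between any of them. Its log2 differences were 0.66 ± 0.16 (SE, n = 3 arrays per group) for DIA minus EDL, 1.31 ± 0.16 for EOM minus EDL and 0.65 ± 0.16 for EOM minus DIA (limma adjusted p = 0.00843, 1.67e-05 and 0.00913). Cox8a had 5940, 6163 and 6969 in EDL, 9590, 8658 and 9402 in DIA and 15372, 14203 and 15911 in EOM, again without overlap. Its differences were 0.54 ± 0.14, 1.26 ± 0.14 and 0.72 ± 0.14 (limma adjusted p = 0.0123, 6.94e-06 and 0.00183), and the first of these had an adjusted p of 0.0505 without EDL control array 1.

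The muscle forms of the same subunits did not follow. Cox6a2 had 41007, 31298 and 31836 in EDL, 29968, 27242 and 27188 in DIA and 30114, 30775 and 28614 in EOM, with differences of -0.29, -0.21 and 0.09. Cox8b had 32371, 29521 and 27434, then 25903, 26159 and 26521, then 27466, 26028 and 24709, with differences of -0.18, -0.19 and -0.01. None of these 6 differences was called. At signals this high the array may no longer respond in proportion, which was not tested. Schwann cell and macrophage genes were also higher in control EOM than in EDL, 5 of 5 and 9 of 9 tested, and in control DIA 1 of 5 and 6 of 9 were higher than in EDL, while skeletal muscle identity genes were lower, 5 of 9 in EOM and 4 of 9 in DIA. The part of non-muscle cells in the level of the general forms was not tested.

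**Figure D5:**
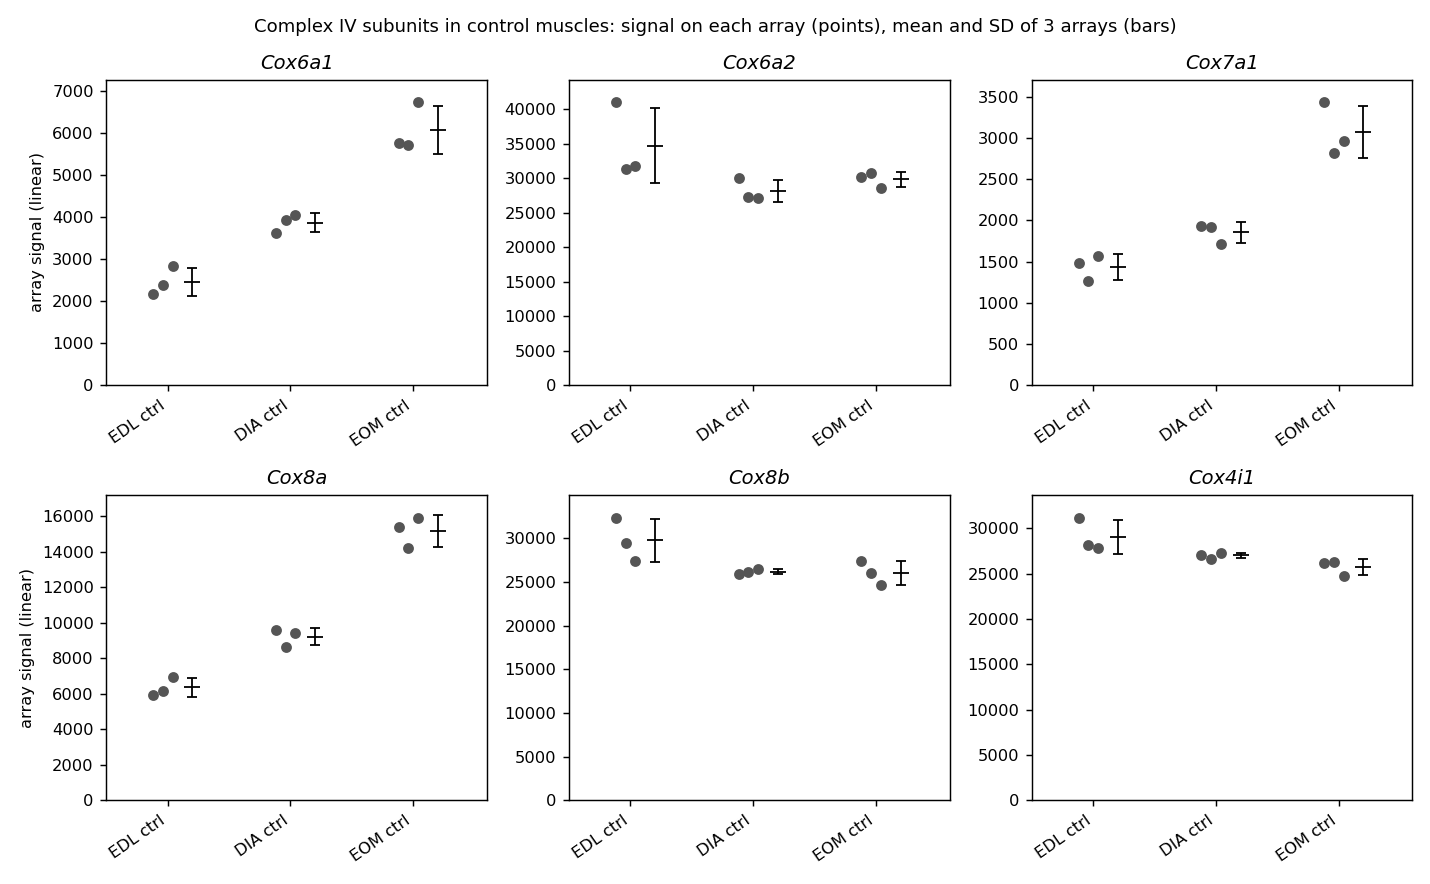
Signal on each array (points, linear scale) with the mean and SD of 3 arrays (bars) of 6 complex IV subunits in control EDL, DIA and EOM. Cox6a1 and Cox8a climb from EDL to EOM (2179 to 2826 up to 5755 to 6728, and 5940 to 6969 up to 14203 to 15911), Cox7a1 is highest in EOM, and Cox6a2, Cox8b and Cox4i1 show no called difference.

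The promoters of Cox8a, Cox8b and Cox6a2 are printed because these isoforms of complex IV subunits are compared above between control muscles (GRCr8, minus strand, 5′ to 3′, 250 bases before the start). Capitals in Cox8a (chr1:213833624-213833873) mark CCGGAAGT of GABPA read on the other strand, 58 and 20 bases before the start. Capitals in Cox8b (chr1:205408274-205408523) mark the E-box CAGCTG at 100 and 62 bases and TATAAA at 39 bases before the start, and in Cox6a2 (chr1:192219717-192219966) the E-box at 107 bases. No matches overlapped. Cox8a and Cox8b also held ACGTG, which is left in lower case. With 3 promoters no comparison of general and muscle forms is made.
Cox8a: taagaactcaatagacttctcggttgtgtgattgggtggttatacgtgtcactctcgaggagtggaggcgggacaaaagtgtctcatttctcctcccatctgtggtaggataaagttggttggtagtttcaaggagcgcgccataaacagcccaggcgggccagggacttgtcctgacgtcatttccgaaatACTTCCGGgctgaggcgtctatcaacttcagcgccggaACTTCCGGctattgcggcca
Cox8b: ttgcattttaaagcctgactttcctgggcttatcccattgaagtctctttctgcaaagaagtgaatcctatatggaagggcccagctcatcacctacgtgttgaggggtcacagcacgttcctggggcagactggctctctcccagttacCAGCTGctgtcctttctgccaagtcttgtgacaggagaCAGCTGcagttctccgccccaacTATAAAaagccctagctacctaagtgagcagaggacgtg
Cox6a2: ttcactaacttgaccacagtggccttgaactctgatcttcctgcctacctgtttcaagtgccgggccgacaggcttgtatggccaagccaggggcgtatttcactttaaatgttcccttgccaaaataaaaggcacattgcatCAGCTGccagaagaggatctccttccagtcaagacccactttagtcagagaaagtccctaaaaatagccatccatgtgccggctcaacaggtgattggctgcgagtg

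Cox7a1, a muscle form, differed from Cox6a2 and Cox8b in that it was higher in EOM. Its signals were 1486, 1263 and 1569 in EDL, 1930, 1924 and 1710 in DIA and 3435, 2822 and 2970 in EOM, and the difference EOM minus EDL was 1.10 ± 0.31 (SE, limma adjusted p = 0.0109). The differences DIA minus EDL and EOM minus DIA were 0.37 and 0.73 and were not called, although the arrays of each pair were apart. Cox5a was higher in EDL: its differences were -0.67 ± 0.23 for DIA minus EDL and -0.79 ± 0.23 for EOM minus EDL (limma adjusted p = 0.0447 and 0.0123). The first of these was not called after quantile or cyclic loess normalization or in 10 of 18 fits that each left out 1 array, and the second not without EDL control array 1 or EOM control array 3.

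Of the ATP synthase genes, Atp5if1 and Atp5me were higher in both oxidative muscles. Atp5if1 encodes the inhibitor that stops ATP synthase from running backwards and burning ATP. It had 2347, 2285 and 2221 in EDL, 3800, 3209 and 3221 in DIA and 3754, 3451 and 3460 in EOM, with differences of 0.57 ± 0.13 and 0.64 ± 0.13 from EDL (SE, limma adjusted p = 0.00461 and 0.000976). Neither DIA nor EOM overlapped EDL, and they overlapped each other. Atp5me, the e subunit of the membrane part, had 7484, 8560 and 7421 in EDL, 14024, 13910 and 9638 in DIA and 11145, 11486 and 9791 in EOM (0.66 ± 0.16 and 0.47 ± 0.16, limma adjusted p = 0.00843 and 0.0317). EDL was below both, and the difference from EOM was not called without EDL control array 1 or 3 or EOM control array 1 or 2.

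In complex I, Ndufa5, Ndufb8 and Ndufs4 were higher and Ndufv3 was lower. Ndufa5, an accessory subunit of the matrix arm, had 4266, 7328 and 9425 in EDL, 13278, 12554 and 11533 in DIA and 11373, 13043 and 13437 in EOM (0.90 ± 0.29 and 0.92 ± 0.29, SE, limma adjusted p = 0.0351 and 0.0199). The EDL arrays were far apart from each other and all below those of DIA and EOM, and the difference from DIA was not called in any of 5 fits that left out a DIA control array or EDL control array 1 or 2, nor that from EOM in 3 that left out EDL control array 1 or EOM control array 2 or 3. Ndufs4 had differences of 0.46 ± 0.12 for EOM minus EDL and 0.44 ± 0.12 for EOM minus DIA (limma adjusted p = 0.00738 and 0.0176), the second not called without DIA control array 2 or EOM control array 1. Ndufb8, a membrane arm subunit, had 1152, 1355 and 2231 in EDL and 2167, 2533 and 2887 in EOM, which overlap, with a difference of 0.73 ± 0.23 (limma adjusted p = 0.0197) that was not called without EDL control array 1 or 2 or EOM control array 3.

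Ndufv3, a small subunit near the site where NADH is oxidised, had 8605, 8351 and 8479 in EDL, 8407, 7947 and 7467 in DIA and 6299, 6233 and 6727 in EOM. Its differences were -0.40 ± 0.10 for EOM minus EDL and -0.31 ± 0.10 for EOM minus DIA (SE, limma adjusted p = 0.00604 and 0.047), and neither was called after quantile or cyclic loess normalization. Leaving out single arrays ended the second call in 14 of 18 cases. A dimmer probe set of Ndufv3, with a mean signal of 414, was higher in DIA and EOM than in EDL, by 1.09 and 0.84, so that the probe sets of this gene disagreed. The gene is known for transcripts of different length. The mean of both gave 0.22 for EOM minus EDL.

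Other genes that build or feed the chain were counted from lists. Of 53 assembly factors 42 were tested, and their median changes in EAMG were -0.15, -0.20 and -0.10 (DIA, EDL, EOM), with 33, 36 and 32 below 0. Each median was nearer 0 than that of the subunits, a difference that was not tested. Of them 2 were called, both in EDL: Cmc1, which helps to assemble complex IV, fell by 0.59 ± 0.15 (1491, 1299 and 1651 in controls, 820, 1215 and 937 in EAMG, limma adjusted p = 0.0323), and Uqcc1, which helps to assemble complex III, fell by 0.56 ± 0.14 (2011, 2101 and 1819 against 1613, 1122 and 1313, limma adjusted p = 0.025). Without EDL EAMG array 2 the changes were -0.75 and -0.44 (limma adjusted p = 0.022 and 0.103), and the call of Cmc1 was lost without EDL control array 1 or 3 or EDL EAMG array 1 or 3, and that of Uqcc1 also without EDL control array 1 or 2 or EDL EAMG array 3. Between control muscles, 2 assembly factors were higher and 2 lower in DIA than in EDL, 7 and 7 in EOM than in EDL, and 1 and 3 in EOM than in DIA. These are counts of the 42 tested. The shares of all probe sets called higher and lower were 14.1% and 10.8%, 23.1% and 18.3%, and 10.6% and 10.7% in that order.

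Genes of coenzyme Q synthesis and of enzymes that feed electrons into it went both ways. The 16 tested of 20 had median changes of -0.05, -0.23 and -0.05. Sqor, which passes electrons from hydrogen sulfide to coenzyme Q, rose in DIA from 601, 537 and 641 to 809, 1735 and 1764 (1.19 ± 0.25, SE, limma adjusted p = 0.0223) and in EDL from 487, 508 and 539 to 982, 1372 and 1795 (1.39 ± 0.25, limma adjusted p = 0.00644). In EOM its signals were 438, 467 and 439 against 586, 586 and 573, and the change of 0.38 was not called. The call in EDL was kept without any 1 array (limma adjusted p = 0.0286 without EDL EAMG array 2), and that in DIA was lost without any 1 of the DIA arrays but EAMG array 1. Without DIA EAMG arrays 2 and 3, EDL EAMG array 2 and EOM EAMG array 2 the change of Sqor in DIA was 0.45, on 1 EAMG array (limma adjusted p = 0.888). Prodh, which passes electrons from proline, rose in EDL by 1.00 ± 0.28 (limma adjusted p = 0.0472). Coq7 and Coq10a, which make coenzyme Q and bind it, fell in EDL by 0.52 ± 0.10 and 0.42 ± 0.11 (limma adjusted p = 0.00732 and 0.0364). Without EDL EAMG array 2 these changes were 0.66 for Prodh, -0.53 for Coq7 and -0.35 for Coq10a (limma adjusted p = 0.177, 0.0288 and 0.133). Of the 3, only Coq7 kept its call whichever array was left out.

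Between control muscles this list had 6 genes higher and 1 lower in DIA than in EDL, 2 and 2 in EOM than in EDL, and 1 and 2 in EOM than in DIA. These are counts of 16 tested genes, where all probe sets gave 14.1% and 10.8%, 23.1% and 18.3%, and 10.6% and 10.7%. Gpd2, the mitochondrial glycerol phosphate dehydrogenase of glycolytic muscle, had 2528, 2981 and 2573 in EDL, 781, 887 and 504 in DIA and 843, 900 and 732 in EOM. Its differences were -1.93 ± 0.19 and -1.71 ± 0.19 from EDL (SE, limma adjusted p = 9.57e-06 and 6.74e-06). Etfdh, which feeds electrons from fatty acid oxidation, was higher in DIA than in EDL by 0.87 ± 0.19 (limma adjusted p = 0.00466).

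Carriers that move ATP, phosphate and creatine phosphate across the mitochondrial membranes had median changes in EAMG of -0.18, -0.04 and -0.17 over the 10 tested of 16. Ucp3, the uncoupling protein of skeletal muscle, rose in DIA from 498, 331 and 1044 to 1585, 1596 and 2872 (1.80 ± 0.38, SE, limma adjusted p = 0.0252). In EDL and EOM its changes were 0.80 and 1.45 and were not called. By its own rule of change calls, the study lists Ucp3 among transcripts raised in both EOM and EDL. The call in DIA was lost without DIA control array 1 or 2 or DIA EAMG array 2 or 3. In control muscle Slc25a5, an adenine nucleotide carrier, was higher in DIA and EOM than in EDL by 1.01 ± 0.14 and 1.42 ± 0.14 (limma adjusted p = 0.000112 and 1.55e-06). This list had 1 gene higher and 1 lower in DIA than in EDL, 2 and 1 in EOM than in EDL, and 2 and 2 in EOM than in DIA. With 10 genes tested such counts give coarse shares, and all probe sets gave 14.1% and 10.8%, 23.1% and 18.3%, and 10.6% and 10.7%.

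Factors that control the transcription of respiratory genes had median changes of 0.06, 0.05 and -0.07 over the 19 tested of 21, and 1 of them was called in EAMG. Ppargc1b (PGC-1 beta), a coactivator of mitochondrial genes, fell in EDL from 810, 776 and 683 to 462, 251 and 260 (-1.28 ± 0.20, SE, limma adjusted p = 0.00302) and in EOM from 1320, 1129 and 1444 to 619, 590 and 718 (-1.01 ± 0.20, limma adjusted p = 0.0167). In DIA it had 647, 490 and 549 against 372, 333 and 415, a change of -0.59 ± 0.20 that was not called (limma adjusted p = 0.119). Its arrays were apart in all 3 muscles. The call in EDL was kept whichever array was left out, and that in EOM was lost without EOM control array 1 or 3 or EOM EAMG array 1 or 2 (limma adjusted p = 0.0651 to 0.0932). Ppargc1a, its better known relative, had 0.11, -0.36 and -0.16, and Esrra, the receptor both act on, had -0.52, -0.18 and -0.16. Neither was called in any muscle.

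In control muscles 4 of these factors were higher and 0 lower in DIA than in EDL, 5 and 2 in EOM than in EDL, and 3 and 2 in EOM than in DIA. A total of 19 were tested, and all probe sets gave 14.1% and 10.8%, 23.1% and 18.3%, and 10.6% and 10.7%. Hif1a, the oxygen-regulated subunit of HIF-1, had 1809, 1813 and 1720 in EDL, 2719, 2493 and 2256 in DIA and 5184, 4367 and 5146 in EOM (EOM minus EDL 1.46 ± 0.13, SE, limma adjusted p = 5.73e-07). Esrrg, an oestrogen-related receptor of oxidative muscle, was higher than in EDL by 1.02 ± 0.20 in DIA and 1.05 ± 0.20 in EOM (limma adjusted p = 0.00198 and 0.000644). Ppargc1b was higher in EOM than in EDL by 0.78 ± 0.20 and than in DIA by 1.21 ± 0.20 (limma adjusted p = 0.00555 and 0.000393).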

How the data were processed

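RNA of 18 samples was hybridised to Affymetrix rat arrays. The authors deposited 1 signal intensity per probe set, computed with GCOS 2.0 per the labels and scaled to a common target on each array, and the calls of change they derived from these were not used here. From the deposited signals log2 values were taken, and limma 3.58.1 in R 4.3.3 was fitted with 1 mean per group to the 12238 probe sets that reached 400 on at least 1 array. P-values were adjusted by Benjamini-Hochberg within each contrast. The number of arrays, 3 per group, limits the precision. Probe sets were named from GEO's platform annotation: of 31042, 20826 had 1 symbol, 436 several and 9780 none. Groups came from the labels. Promoter sequences came from RefSeq (GRCr8).

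Members and gene lists were chosen with earlier results of these data known. Arrays are given for up to 6 subunits per direction with the largest change among those called in each comparison and for both partners of fixed isoform pairs, and for at most 4 called genes of each list. The fit was run on simulated data with independent noise for each probe set and array and changes placed in EDL EAMG alone. Those data held no shift of many genes together on 1 array, so they cannot show how the fit deals with such shifts. Alternatives covered the signal minimum, an added 100, quantile normalization, fitting the compared muscles alone, a replicate block, array weights, averaging a gene's probe sets, 7 of 9 pairwise array ratios of 2-fold in 1 direction (the methods asked for calls of change in as many comparisons, which these ratios do not replace), leaving out each array and leaving out the 2 arrays of low poly-A signal.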

Additional observations from a re-analysis of the deposited data

How the results depend on the processing

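The direction of the EAMG medians held under every alternative, while the counts of called subunits did not. Subunits called lower in DIA were 1, and 0 with no signal minimum, with the muscle fitted alone, with the 2 low poly-A arrays left out, without 4 arrays (DIA EAMG 2 and 3, EDL EAMG 2, EOM EAMG 2) or with 7 of 9 pairwise ratios of 2-fold, 2 with 400 required on 3 arrays or with array weights, 3 with 100 added to the signal and 4 with a replicate block. In EDL they were 7, and 0 with no minimum, with the muscle fitted alone or with the ratios, 13 with quantile and 16 with cyclic loess normalization, 11 with a replicate block or without the low poly-A arrays and 3 without the 4 arrays. In EOM they were 1, and 0 with no minimum or the ratios and 2 with array weights. The methods tell of repeats of the whole experiment, but no label says that a number marks a repeat. Deviations of control and EAMG arrays of 1 muscle correlated at -0.03 to 0.34 (median 0.17) for equal numbers and at -0.24 to 0.10 (median -0.05) for unequal ones. Not every pair was above 0.1, so pairing was not assumed and the block is given as counts. Cyclic loess, the set of 4 arrays and the fits without 1 array for genes outside the subunits were chosen after seeing the data.

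Between control muscles, subunits higher in DIA than EDL were 5, and 9 with quantile and 11 with loess normalization, and the 1 lower became 0 with either or with no minimum. Higher in EOM than EDL were 8, and 20 with quantile, 14 with array weights and 29 with loess, and lower 2, and 1 with quantile, loess or the mean of a gene's probe sets and 5 with weights. Higher in EOM than DIA were 3, and 5 with weights, and lower 1, and 3 with weights and 0 with quantile, loess, the probe set mean or without the low poly-A arrays. Medians moved to -0.11 in DIA EAMG without the 4 arrays, to 0.077 and 0.10 for DIA minus EDL with quantile and loess, to 0.15, 0.18 and -0.020 for EOM minus EDL with quantile, loess and weights, and to 0.083 and 0.094 for EOM minus DIA. The mean of the probe sets of Ndufv3 reversed EOM against EDL, to 0.22. Without the 4 arrays Coq10a in DIA was 0.034, Cmc1 in DIA 0.057 and Uqcc1 in EOM -0.031, and without 1 array they ranged from -0.11 to 0.0013, -0.14 to 0.016 and -0.031 to 0.13, none called.

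With 1 array left out, subunits lower in EAMG ranged from 0 to 11 in DIA, 0 to 11 in EDL and 0 to 1 in EOM, and higher in EAMG or different between muscles from 0 to 0. Counts ranged from 3 to 5 and 0 to 1 for DIA above and below EDL, 5 to 9 and 1 to 3 for EOM above and below EDL, and 2 to 4 and 0 to 1 for EOM above and below DIA. Medians ranged from -0.32 to -0.19 in DIA EAMG, -0.24 to -0.22 in EDL EAMG, -0.31 to -0.11 in EOM EAMG, -0.042 to -0.012 for DIA minus EDL, -0.051 to -0.0086 for EOM minus EDL and -0.022 to 0.025 for EOM minus DIA in controls, and -0.084 to 0.052, -0.060 to 0.12 and -0.069 to 0.14 for the differences of changes in that order. The cause of these shifts was not tested. Signals near the minimum limit Ndufa4l2 and Cox6c-ps1.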
